A study of Mus musculus with 103 samples.

Results

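Genes of Schwann cells and of myelin were examined in RNA from mouse muscle stem cells at 3 ages. The set holds 33 genes, matched by symbol among 43283 genes with an Ensembl ID in the bulk table, and all 33 were also present in the table of single-cell wells. It was drawn up with the old and young bulk values of these genes known, so their old against young differences are given as a description. The old bulk group was 3 libraries from untreated C57BL/6 mice of 24 months. The middle-aged group was 2 libraries from such mice of 12 and 13 months. The young group was 3 libraries from such mice, to which the age field gives 3 months and the sample description 2 months. Single cells came from 31 wells of 1 mouse of 24 months and 64 wells of 1 mouse of 3 months. All samples are labelled muscle stem cell as source and muscle cell as type, whereas the design text calls them myoblasts. Neither a sort gate nor a surface marker is stated. Culture with fibroblast growth factor 2 is described, but not its order relative to RNA isolation. Values are TPM, a transcript's length-scaled share of its library, so levels of different genes can be set side by side. Per the labels, bulk RNA came from 5000 to 10000 cells and was amplified before sequencing. Between 12849 and 17114 genes reached 1 TPM per library, and mitochondrially encoded genes took 32.7 to 46.5% of it.

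Schwann cells are the glia of peripheral nerves. Those that myelinate wrap their own membrane around an axon, and myelin proteins hold the layers together, while other Schwann cells ensheathe thin axons or cap the nerve ending at the neuromuscular junction. Neuregulin on the axon acts through ErbB receptors of the Schwann cell, and the transcription factor Sox10, with Egr2, switches on the myelin genes. The muscle stem cell is another cell type, marked by Pax7 and Myf5, which lies beside the muscle fibre.

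The members lie on 16 chromosomes (GENCODE vM21, mm10), so the set is not a cluster in the genome. Promoter sequence, as the 250 bases before a transcript start, was held by the RefSeq table (GRCm38.p6) for 23 members, with 35 starts. The letters ACAAAG or ACAATG, the core bound by SOX proteins, were found on either strand before 8 of these 35 starts, or 22.9%, in the genes Cadm4, Cnp, Egfl8, Gjb1, Mag and Sox2. The matching windows of Mag overlap and hold the same site, which is counted for each start. Over all 32851 starts in the table the share was 25.2%. EGR letters, GCGTGGGCG or GCGGGGGCG on either strand, were found before 1 member start, that of Scn7a, a share of 2.86% against 3.06% of all starts. TATAAA on either strand stood before 1 member start, in Gjb1, a share of 2.86% against 12.4%. No motif contains another, and a match describes letters only. A set of 4 windows free of annotated exons is printed 5′ to 3′ with SOX letters in capitals, as CTTTGT or CATTGT where they lie on the other strand. Gjb1 encodes a gap junction protein of myelin, and the window printed, chrX:101383482-101383731 on the plus strand, holds 2 matches near the start. Mag, a protein of the membrane next to the axon, is shown for 1 match (chr7:30914923-30915172, minus strand). Gjc3, an abundant member encoding another gap junction protein, and Gldn, the member with the largest old against young difference, are shown as windows without a match (chr5:137963099-137963348, minus strand, and chr9:54286236-54286485, plus strand).
Gjb1: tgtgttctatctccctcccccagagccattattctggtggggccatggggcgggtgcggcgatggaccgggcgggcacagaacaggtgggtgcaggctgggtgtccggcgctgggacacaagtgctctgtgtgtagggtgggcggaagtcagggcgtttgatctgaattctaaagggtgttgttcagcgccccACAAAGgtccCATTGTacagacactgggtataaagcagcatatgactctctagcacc
Mag: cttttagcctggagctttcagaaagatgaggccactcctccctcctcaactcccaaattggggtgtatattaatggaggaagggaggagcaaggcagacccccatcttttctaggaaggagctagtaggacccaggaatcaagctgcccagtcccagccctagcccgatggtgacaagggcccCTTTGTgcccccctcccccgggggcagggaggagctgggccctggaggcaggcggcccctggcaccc
Gjc3: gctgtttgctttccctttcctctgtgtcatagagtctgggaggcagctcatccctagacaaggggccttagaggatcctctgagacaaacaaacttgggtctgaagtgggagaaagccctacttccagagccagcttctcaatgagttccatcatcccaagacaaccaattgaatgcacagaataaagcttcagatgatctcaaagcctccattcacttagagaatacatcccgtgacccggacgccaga
Gldn: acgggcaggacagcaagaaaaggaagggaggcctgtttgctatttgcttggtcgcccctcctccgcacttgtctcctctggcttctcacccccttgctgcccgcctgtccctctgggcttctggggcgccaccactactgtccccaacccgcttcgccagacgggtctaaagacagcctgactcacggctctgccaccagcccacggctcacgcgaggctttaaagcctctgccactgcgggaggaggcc

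Across bulk libraries, most members were higher in old than in young mice. Middle-aged means mostly lay between, an order that includes the contrast known when the genes were chosen. Of the 33 members, 31 had a mean of at least 1 TPM over the 8 libraries and entered the fit over 22492 genes. Gfra3, a receptor of the GDNF family, and its ligand Artn did not enter it. Artn was listed at 0 in all 8 libraries. Gfra3 was listed at 0, 0 and 2.93 TPM in young, at 0 and 0 in middle-aged and at 4.27, 0 and 0 TPM in old libraries. Of the members that entered, 5 had a young mean under 1 TPM, so they passed through the other ages and had to differ. The log2 difference in TPM + 1, old minus young, was above 0 for 30 of 31 members, and 54.2% of all genes tested had such a value. Its median was 2.07 over the members, with a range of -0.17 to 3.63, and 0 over all genes. In 17 members every old library lay above every young library, which 5.85% of all genes showed, and in 0 every old library lay below, against 4.16%. Limma called 0 of 31 members at an adjusted p under 0.05 (0.0% of all genes), and 17 at an unadjusted p under 0.05, each higher in old (3.72% of all genes, or 5.89% in either direction). These counts come from the contrast known when the genes were chosen and are given without inference. At least 1 library listed a 0 for 15 members. Young libraries 1, 2 and 3 listed 8, 11 and 11 members at 0, against 3, 4 and 2 in the old libraries. In bulk RNA, fewer cells of a type and less RNA per cell cannot be told apart.

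**Figure D1:**
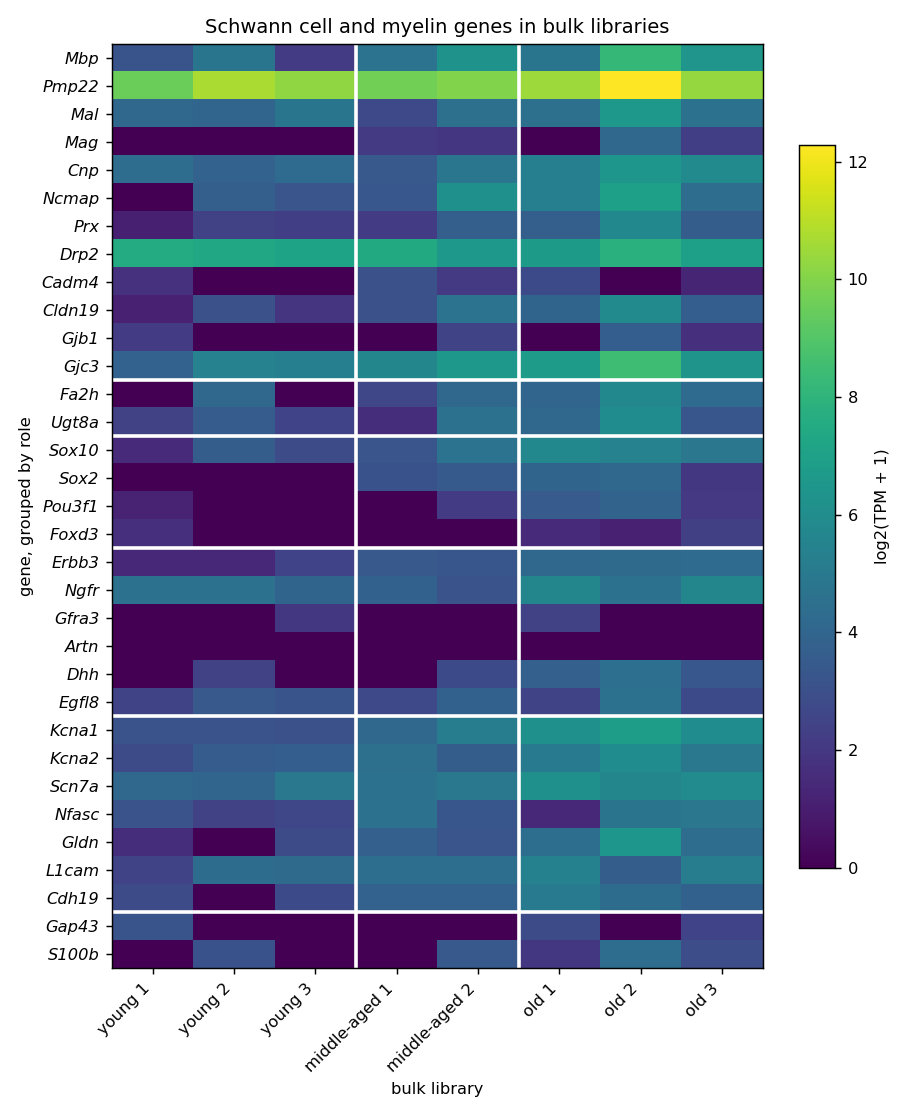
Level of the 33 members (rows, grouped by role) in the 8 bulk libraries (columns, young to old), as log2(TPM + 1) on the colour scale. Most rows are brightest in the old columns, above all in old library 2, while Pmp22 and Drp2 are bright at every age and Artn is dark throughout.

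The 12 members that encode proteins of the myelin membrane were led by Pmp22, a protein of compact myelin that many other cells also make. Pmp22 had 729, 1723 and 1234 TPM in young libraries, 809.79 and 993 TPM in the middle-aged pair and 1425, 5013 and 1291 TPM in old libraries. Its old and young ranges overlapped, as old libraries 1 and 3 lay below young library 2, and the old minus young difference in log2(TPM + 1) was 0.86 ± 0.50, where ± gives the SE here and for all such differences. Mbp, which joins the inner faces of the myelin layers, had 8.01, 26 and 3.45 TPM in young libraries, 24.9 and 75.3 TPM in the middle-aged pair and 26.1, 288 and 84.9 TPM in old libraries. Old libraries lay just above or far above the young ones (log2 difference 3.09 ± 0.89), and within the old group the levels spread over a wide range (133 ± 138 TPM, SD, n = 3, against 12.5 ± 11.9 TPM in young, n = 3). In both genes old library 2 was the highest of all 8.

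Prx, periaxin of the Schwann cell membrane next to the basal lamina, had 1.13, 4.18 and 3.87 TPM in young libraries, 3.47 and 12.3 TPM in the middle-aged pair and 12.2, 53.2 and 11.1 TPM in old libraries. Drp2, its partner in a dystroglycan complex, had 186, 158 and 137 TPM in young libraries, 174 and 92.6 TPM in the middle-aged pair and 103, 225 and 122 TPM in old libraries. Thus old and young did not overlap for Prx (log2 difference 2.45 ± 0.81) and overlapped for Drp2 (-0.17 ± 0.38), the 1 tested member with a negative difference. Ncmap, a small protein of non-compact myelin, had 0, 12.3 and 8.36 TPM in young libraries, 9.13 and 69.9 TPM in the middle-aged pair and 37.98, 122 and 20.1 TPM in old libraries. Cldn19, a claudin that seals the myelin loops, had 1.16, 7.33 and 2.66 TPM in young libraries, 7.17 and 24.9 TPM in the middle-aged pair and 14.6, 57.8 and 11.6 TPM in old libraries. In both, no young library reached the lowest old one, at log2 differences of 3.22 ± 1.09 for Ncmap and 2.49 ± 0.82 for Cldn19, while the middle-aged libraries overlapped the old.

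Gjc3, the gap junction protein connexin 29 of Schwann cells, was the most abundant member after Pmp22 and Drp2, with 13.4, 43.3 and 38.9 TPM in young libraries, 48.6 and 92.8 TPM in the middle-aged pair and 112, 353 and 79.98 TPM in old libraries. Old libraries averaged 182 ± 149 TPM and young ones 31.9 ± 16.2 TPM (SD, n = 3 each), without overlap, a log2 difference of 2.33 ± 0.62. Cnp, an enzyme that keeps cytoplasmic channels open in myelin, had 19.7, 13.4 and 18.6 TPM in young libraries, 9.83 and 27.8 TPM in the middle-aged pair and 39.1, 88.03 and 56.7 TPM in old libraries. Its old libraries stood above all 5 others (old minus young 1.71 ± 0.51), although the gene shares its locus with Dnajc7 and the counting strand is not given in the sources used here, so reads of the overlap cannot be told apart. Mal, a raft protein of myelin, had 16.1, 14.97 and 26.5 TPM in young libraries, 5.5 and 21.9 TPM in the middle-aged pair and 22.4, 92.3 and 22.9 TPM in old libraries. Here young library 3 exceeded old libraries 1 and 3, so the groups overlapped (0.93 ± 0.68). Mag had 0, 0 and 0 TPM in young libraries, 3.2 and 2.83 TPM in the middle-aged pair and 0, 15.97 and 3.8 TPM in old libraries. It was listed at 0 in every young library and in old library 1, so no fold is given. The adhesion protein Cadm4, which binds the axon, had 2.35, 0 and 0 TPM in young libraries, 7.2 and 3.2 TPM in the middle-aged pair and 5.86, 0 and 1.43 TPM in old libraries, with the middle-aged mean highest. Gjb1 stayed under 5 TPM on average at each age, with a highest value of 11.7 TPM in old library 2.

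Both lipid enzymes of the set had higher means in old libraries with overlapping ranges. Fa2h, which makes 2-hydroxylated fatty acids for myelin galactolipids, had 0, 16.2 and 0 TPM in young libraries, 5.14 and 16.5 TPM in the middle-aged pair and 15.1, 52.7 and 18.4 TPM in old libraries. It was listed at 0 in young libraries 1 and 3, while young library 2 exceeded old library 1 (3.31 ± 1.10). Ugt8a, which adds the galactose of those lipids, had 4.18, 10.9 and 4.47 TPM in young libraries, 2.01 and 23.1 TPM in the middle-aged pair and 17.1, 62.99 and 8.75 TPM in old libraries. Young library 2 again reached into the old range (1.69 ± 0.92).

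Of the 4 transcription factors, 3 were higher in old than in young libraries without overlap, as 5.85% of all genes were. Sox2, Pou3f1 and Foxd3 had young means under 1 TPM, so they passed the filter through the other ages and had to differ. Nothing is read from this count. Sox10, the factor that Schwann cells need at every stage, had 1.83, 11.5 and 6.28 TPM in young libraries, 8.45 and 25.01 TPM in the middle-aged pair and 51.99, 43.2 and 27.9 TPM in old libraries. Old libraries averaged 41.05 ± 12.2 TPM and young ones 6.54 ± 4.85 TPM (SD, n = 3 each), a log2 difference of 2.68 ± 0.67. Pou3f1, which moves Schwann cells toward myelination, had 1.27, 0 and 0 TPM in young libraries, 0 and 3.45 TPM in the middle-aged pair and 10.6, 14.2 and 3.09 TPM in old libraries. It was at 1.27 TPM or less in all young libraries and at 0 in middle-aged library 1, and its difference of 2.77 ± 0.98 on the log2 scale leans on the pseudocount. Sox2, a factor of immature and repair Schwann cells, had 0, 0 and 0 TPM in young libraries, 7.6 and 10.1 TPM in the middle-aged pair and 14.4, 16.6 and 3.02 TPM in old libraries. It was listed at 0 in every young library and above 0 in all 5 middle-aged and old ones, so no fold is given. The Sox2 gene lies inside the long RNA gene Sox2ot, and reads of the 2 cannot be told apart here. Foxd3, a factor of the neural crest, stayed below 5 TPM in every library and was listed at 0 in both middle-aged ones.

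Among the 6 receptors and ligands, Erbb3, the neuregulin receptor, had 1.59, 1.67 and 4.55 TPM in young libraries, 9.8 and 8.69 TPM in the middle-aged pair and 15.9, 17.9 and 18.9 TPM in old libraries. The old libraries were nearly equal. The 3 ages did not overlap one another. Old libraries averaged 17.6 ± 1.5 TPM and young ones 2.6 ± 1.69 TPM (SD, n = 3 each), a log2 difference of 2.46 ± 0.61. Ngfr, the low-affinity neurotrophin receptor, took another course, with 22.8, 23.8 and 14.6 TPM in young libraries, 13.1 and 7.76 TPM in the middle-aged pair and 48.6, 23.9 and 49.4 TPM in old libraries. Middle-aged libraries were lowest of the 3 ages, and old library 2 barely cleared the highest young library (old minus young 0.92 ± 0.49). Dhh, the hedgehog ligand by which Schwann cells instruct the nerve sheath, had 0, 4.45 and 0 TPM in young libraries, 0 and 5.8 TPM in the middle-aged pair and 12.4, 21.5 and 9.08 TPM in old libraries. All old libraries lay above all others (3.04 ± 1.04), of which 3 listed the gene at 0, and Dhh overlaps the coding gene Rhebl1. Egfl8, an EGF-domain protein reported in Schwann cells of mice, had 4.8, 9.94 and 8.16 TPM in young libraries, 5.49 and 13.04 TPM in the middle-aged pair and 4.79, 24.1 and 5.85 TPM in old libraries. Its ages overlapped (0.26 ± 0.74), and it overlaps Agpat1.

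Of the 7 channels and contact proteins, 5 were higher in old than in young libraries without overlap, as 5.85% of all genes were. Kcna1, a potassium channel of the myelinated axon (chr6:126640397-126646384, minus strand), had 7.92, 7.77 and 7.25 TPM in young libraries, 17.1 and 36.1 TPM in the middle-aged pair and 70.2, 116 and 61.1 TPM in old libraries. Old libraries averaged 82.5 ± 29.5 TPM and young ones 7.65 ± 0.35 TPM (SD, n = 3 each), the middle-aged pair lay between without overlap, and old minus young was 3.22 ± 0.47 on the log2 scale. Kcna2, which forms channels with Kcna1, had 6.19, 11.1 and 11.8 TPM in young libraries, 22.3 and 11.3 TPM in the middle-aged pair and 31.2, 61.3 and 28.8 TPM in old libraries. Old libraries lay above all others (1.91 ± 0.53). Scn7a, a sodium-sensing channel of non-myelinating Schwann cells, had 16.9, 14.99 and 28.9 TPM in young libraries, 22.97 and 29.2 TPM in the middle-aged pair and 69.9, 48.9 and 60.1 TPM in old libraries. Its old libraries also stood apart from the other 5 (1.55 ± 0.42).

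Gldn, gliomedin, which gathers sodium channels at the node of Ranvier, had 2.07, 0 and 5.93 TPM in young libraries, 12.8 and 8.49 TPM in the middle-aged pair and 20.8, 85.6 and 20.2 TPM in old libraries. It gave the largest difference of the set (3.63 ± 0.84), with old libraries 1 and 3 nearly equal and old library 2 well above them, and it overlaps the antisense gene Gldnos. Cdh19, a cadherin of Schwann cell precursors, had 6.22, 0 and 5.68 TPM in young libraries, 13.4 and 13.6 TPM in the middle-aged pair and 33.2, 19.2 and 12.9 TPM in old libraries. Here old library 1 was highest, and old library 3 lay below both middle-aged ones (old minus young 2.55 ± 0.82). L1cam, an adhesion protein of axons and of non-myelinating Schwann cells, had 4.71, 19.1 and 17.9 TPM in young libraries, 20.4 and 20.9 TPM in the middle-aged pair and 41.3, 11.5 and 36.6 TPM in old libraries. Nfasc, neurofascin of the node and paranode, had 7.85, 4.13 and 5.23 TPM in young libraries, 22.97 and 8.69 TPM in the middle-aged pair and 1.62, 25.8 and 28 TPM in old libraries. The age groups overlapped for both, since old library 2 was low for L1cam (1.07 ± 0.66) and old library 1 for Nfasc (0.95 ± 0.92). L1cam overlaps the coding genes Arhgap4 and Avpr2.

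The remaining pair, S100b and Gap43, are a calcium-binding protein that marks Schwann cells and a growth protein of axons and immature Schwann cells. S100b had 0, 7.42 and 0 TPM in young libraries, 0 and 9.7 TPM in the middle-aged pair and 2.96, 19.9 and 6.52 TPM in old libraries. It overlaps Dip2a, was listed at 0 in 3 libraries and overlapped between old and young (2.07 ± 1.23). Gap43 was listed at 0 in 5 libraries and reached its highest value, 8.06 TPM, in young library 1.

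**Figure D2:**
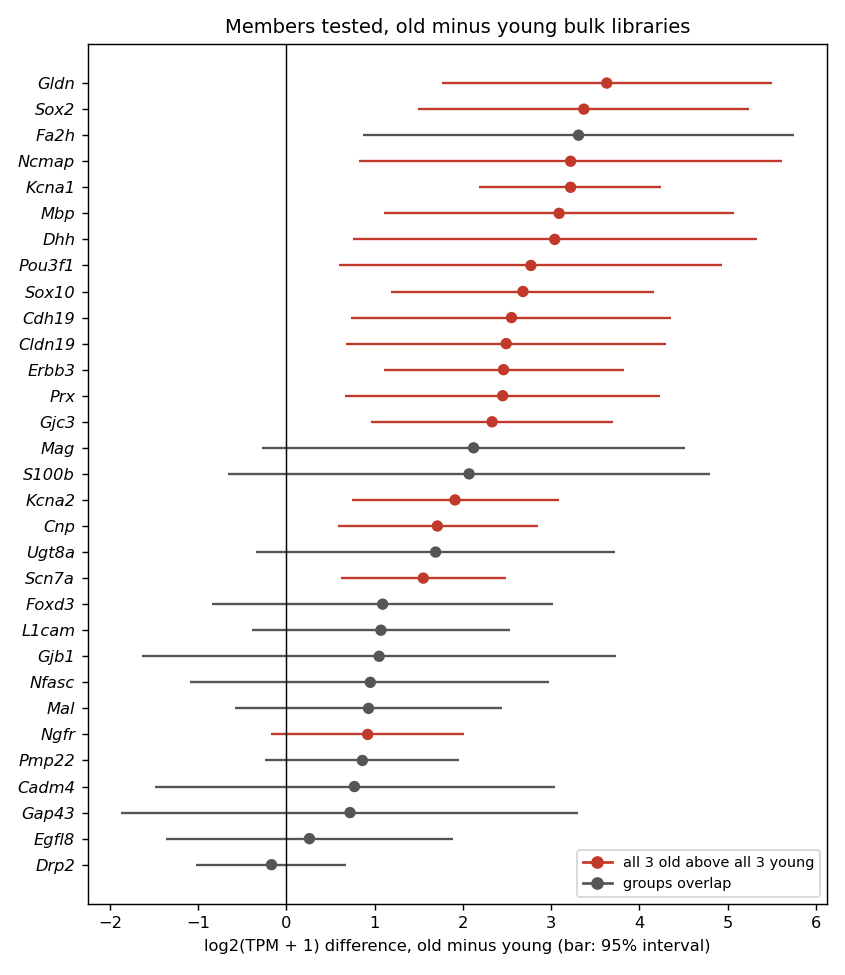
Difference in log2(TPM + 1), old minus young, of the 31 members that entered the fit, with 95% intervals from limma, as a description of the contrast known when the genes were chosen. Red members, 17 in number, have all 3 old libraries above all 3 young ones. Gldn is at the top with 3.63 and Drp2 at the bottom with -0.17.

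The 3 old libraries differed among themselves in their sums by role. Of the 31 tested members, 21 were highest of the old libraries in library 2, 6 in library 1 and 4 in library 3, and among all tested genes 33.5% were highest in library 2. Myelin proteins without Pmp22 and Drp2, which would outweigh the rest, summed to 269.9, 1082 and 294.7 TPM in old libraries 1, 2 and 3, against a young mean of 96.4 TPM. That is 2.8, 11.2 and 3.06 times the young mean. Lipid enzymes were likewise highest in library 2, at 2.69, 9.68 and 2.27 times. Receptors and ligands were nearly level as a sum, with 86.1, 87.4 and 83.25 TPM in the 3 old libraries, or 2.6, 2.64 and 2.52 times the young mean. The members of that sum were not all level. Ngfr was lowest in library 2 (48.65, 23.95 and 49.41 TPM in libraries 1, 2 and 3). Dhh (12.42, 21.47 and 9.08 TPM) and Egfl8 (4.79, 24.05 and 5.85 TPM) were highest there, while Erbb3 was nearly equal (15.95, 17.89 and 18.91 TPM). Transcription factors reached 10.2, 9.79 and 4.94 times the young mean and channels and contact proteins 4.2, 5.77 and 3.88 times. Old library 2 thus had 3.83 times the mean of the other old libraries for myelin proteins and 3.9 times for lipid enzymes, but 1.29 times for transcription factors and 1.03 times for receptors and ligands. These ratios are values of single libraries with no test. Library 2 also had the most genes at 1 TPM or more of all 8, at 17114 against 12849 to 17004 in the others, and the lowest sums of the old group for fibroblast markers (1476 TPM against 2015 and 2078) and for perineurial and endoneurial markers (221 TPM against 382 and 384). The part of these in the pattern was not tested. Without old library 2, the median old minus young difference of the members was 1.62, and 18 of 32 tested members did not overlap (9.28% of all genes then tested).

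**Figure D3:**
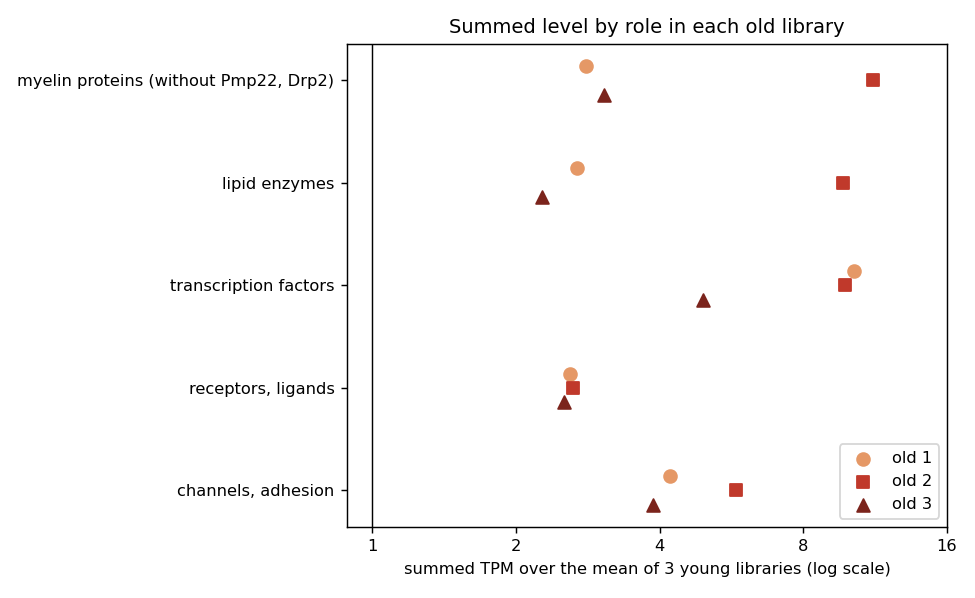
Summed TPM of each role in old libraries 1, 2 and 3, divided by the mean of the 3 young libraries, on a log axis. Old library 2 stands at 11.2 for myelin proteins and 9.68 for lipid enzymes, apart from old libraries 1 and 3, whereas the 3 old libraries coincide near 2.6 for receptors and ligands. That last sum joins Ngfr, lowest of the old group in library 2, with Dhh and Egfl8, highest there.

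After the group means were removed, the members did not form 1 block that varies together across the 8 libraries. The median Pearson correlation over pairs of tested members was 0.16, with quartiles at -0.30 and 0.59, as a description of 8 libraries that share their totals. With Mbp, the median over the other members was 0.46, against 0.02 over all tested genes. S100b (0.88), Fa2h (0.81), Egfl8 (0.80) and Cldn19 (0.79) had the patterns most like that of Mbp. At the other end were Cadm4 (-0.71), Scn7a (-0.66) and Cdh19 (-0.64), and 9 members in all were below 0. With Sox10 the median was 0.28, against -0.18 over all tested genes.

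**Figure D4:**
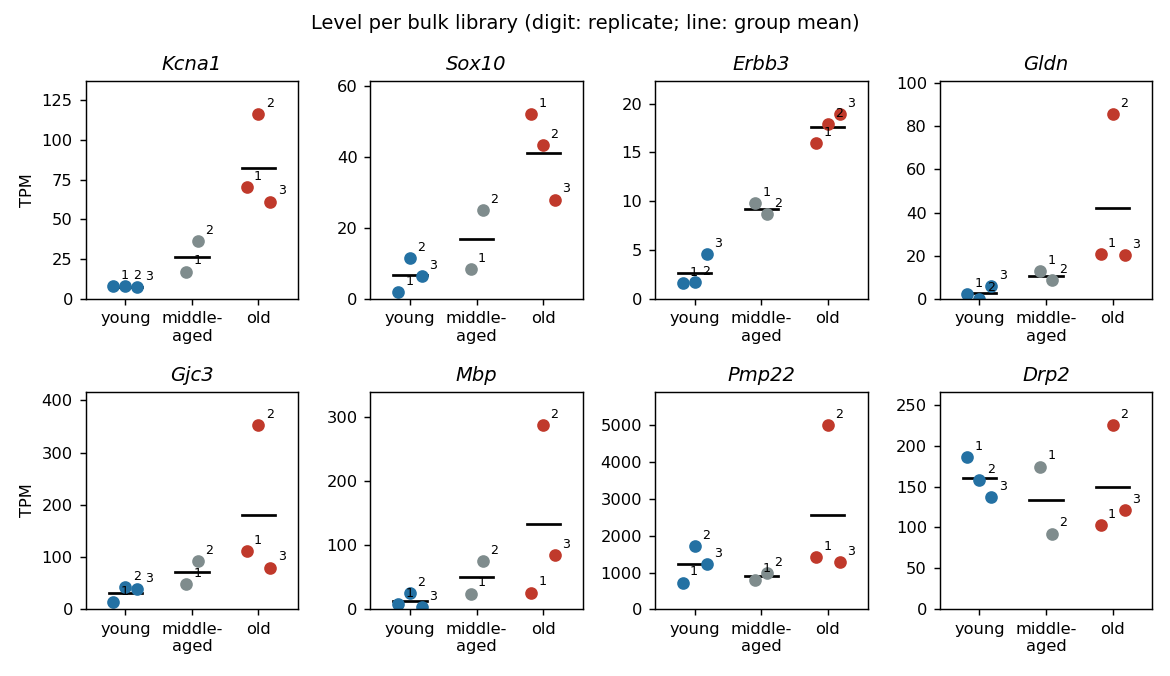
TPM of 8 members in each bulk library, young to old, with a digit for the replicate and a line for the group mean. Kcna1, Sox10, Erbb3 and Gldn have all old libraries above all young ones, Gjc3 and Mbp do so with a high old library 2, and Pmp22 and Drp2 overlap between ages.

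The middle-aged libraries were used to ask how the members stood at 12 and 13 months. They are set against the same young libraries, whose values were known when the genes were chosen, so these counts are a description as well. Middle-aged minus young was above 0 for 24 of 31 members (55.2% of all genes tested), with a median of 0.74 against 0.18 over all genes and a range of -1.06 to 3.29. Limma called 0 of 31 at an adjusted p under 0.05 (0.00445% of all genes, a single gene), and 3 at an unadjusted p under 0.05 (Erbb3, Kcna1 and Sox2), each higher (5.5% of all genes, or 7.78% in either direction). Both middle-aged libraries lay above all young ones in 10 members, or below them in 1, which 12.6% and 5.37% of all genes showed. Values for the 3 were 1.58 ± 0.52 for Kcna1 (adjusted p = 0.438, limma), 1.60 ± 0.69 for Erbb3 (adjusted p = 0.606) and 3.29 ± 0.95 for Sox2 (adjusted p = 0.386), the last on a young group listed at 0. Ngfr was the member with both middle-aged libraries below all young ones (-0.91 ± 0.55, adjusted p = 0.626). The 2 middle-aged libraries were themselves uneven, with library 2 above library 1 in 21 members and in 29.5% of all genes. Summed without Pmp22 and Drp2, the members had 302.4 and 587 TPM in middle-aged libraries 1 and 2, against 163.8, 264.7 and 226 TPM in the young libraries. Without middle-aged library 1 the median difference was 1.72 and 24 of 32 tested members lay above all young libraries (26.2% of all genes then tested). Without middle-aged library 2 the median was 0.41, and 11 of 32 lay above (36.4% of all genes). A lone library lies above the others more often than a pair does. The unadjusted count of 3 became 7 without young library 2 and 5 without young library 3. Among markers of other cells, 4 lists had higher sums in middle-aged than in young libraries without overlap. Perineurial and endoneurial markers summed to 246 to 286 TPM in middle-aged, against 97 to 156 TPM in young libraries. Tenocyte markers summed to 88.3 to 118 TPM in middle-aged, against 27.5 to 40.9 TPM in young libraries. Endothelial markers summed to 63.4 to 98.6 TPM in middle-aged, against 33.01 to 48.4 TPM in young libraries. The fourth list, macrophage markers, summed to 84.99 to 122 TPM in middle-aged, against 29.1 to 49.4 TPM in young libraries. Macrophage sums overlapped once Lyz2, a lysozyme gene, was left out. The part of these cells in the member values was not tested.

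The comparison of old with middle-aged shares libraries with both others, and the old values were known when the genes were chosen, so its counts are a description too. Set against middle-aged, old libraries were higher in 29 of 31 members (42.4% of all genes), with a median of 1.21 against -0.09 over all genes. Limma called 0 of 31 at an adjusted p under 0.05 (0.0% of all genes), and 4 at an unadjusted p under 0.05, each higher in old (2.34% of all genes, or 6.19% in either direction). These were Ngfr (1.83 ± 0.55, adjusted p = 0.614), Cnp (1.74 ± 0.57, 0.68), Kcna1 (1.63 ± 0.52, 0.656) and Scn7a (1.16 ± 0.47, 0.724). Every old library lay above both middle-aged ones in 12 members, which 7.15% of all genes showed. They were Cnp, Dhh, Erbb3, Foxd3, Gldn, Kcna1, Kcna2, Mal, Ngfr, Pmp22, Scn7a and Sox10. Of the myelin genes, Mbp (0.98 ± 1.00), Ncmap (0.80 ± 1.21) and Cldn19 (0.64 ± 0.91) overlapped between old and middle-aged. The median was 0.64 without middle-aged library 1 and 0.75 without old library 2. Without middle-aged library 2 the count of 12 became 21 of 32 tested (13.4% of all genes) and the unadjusted count of 4 became 7. By group means, 24 of 31 members had middle-aged between young, the lowest, and old, as 10.7% of all genes did. That order includes old above young, by which the genes were chosen, so nothing is read from this count. Among markers of other cells, fibroblast markers summed to 1476 to 2078 TPM in old, against 1165 to 1332 TPM in middle-aged libraries. Macrophage markers summed to 28.4 to 60.4 TPM in old, against 84.99 to 122 TPM in middle-aged libraries. Neither pair of sums overlapped, and the part of these cells in the member values was not tested.

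Other genes of the same cells and pathways were taken from lists drawn up with earlier results of these data known. For old minus young, 54.2% of all genes tested were above 0, and 5.85% had every old library above every young one. At an unadjusted p under 0.05 in limma, 3.72% were higher in old. The old against young counts of this and the following lists are to be read beside these shares. Of 24 further Schwann cell and myelin genes, 23 were tested, and old minus young was above 0 in 18 and below 0 in 5, with a median of 1.32. In 10 of them the old group lay wholly above the young, and 0 passed at an adjusted p under 0.05 in limma (9 at an unadjusted p, each higher in old). The most abundant was Egr2, the partner of Sox10 in myelination and an immediate early gene of many cells. It had 76.2, 106 and 115 TPM in young libraries, 207 and 299 TPM in the middle-aged pair and 128, 166 and 231 TPM in old libraries, so middle-aged libraries were highest in the mean. Its old and young values did not overlap, with old minus young at 0.79 ± 0.34.

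Partners of the member receptors and ligands were less uniform. Of 21 neuregulin, neurotrophin, GDNF and hedgehog genes, 19 were tested, 14 above and 5 below 0, with a median of 0.43 and 0 calls at an adjusted p under 0.05 in limma (1 at an unadjusted p). Gfra1, a GDNF receptor, had 33.1, 34.3 and 32.1 TPM in old libraries, against 13.8, 19.2 and 13.1 TPM in young ones (1.08 ± 0.44), without overlap. Ptch1 and Smo, the receptor and transducer of the hedgehog signal that Dhh starts, differed by 0.19 ± 0.41 and 0.39 ± 0.50, each with overlapping groups. Erbb2, the partner that Erbb3 needs to signal, was picked after its values were seen and had 6.42, 11.6 and 5.99 TPM in old libraries, against 2.88, 4.03 and 3.29 TPM in young ones. Nrg1, their ligand, picked likewise, had 0, 0 and 0 TPM in old libraries, against 2.42, 0 and 2.76 TPM in young ones. The cholesterol synthesis genes that myelin growth draws on had 7 of 19 above and 12 below 0, with a median of -0.12, and 0 passed at an adjusted or an unadjusted p under 0.05 in limma. Repair Schwann cell genes, 3 of 10 of which are members, had 6 of 8 tested above 0 (median 0.82), and Shh was listed at 0 in every library. The 5 tested that are no members had 3 above 0 and a median of 0.05. The whole list summed to 825.7 to 1067 TPM in old, against 973.6 to 1194 TPM in young libraries.

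Markers of other cells that the preparations could hold were read beside the members. Axon markers were low at both ages. Neuron and axon markers had 0 of 5 tested above 0 for old minus young, Tubb3 was listed at 0 in every library, and the 10 genes summed to 5.74 to 15.5 TPM in old, against 11.2 to 18.9 TPM in young libraries. Oligodendrocytes, the myelinating glia of the brain, also express many of the member genes. Of their 10 markers, each listed at 0 in at least 1 library, 6 were tested and 4 were above 0, Mag among them. The 10 summed to 27.7 to 57.95 TPM in old, against 17.1 to 26.6 TPM in young libraries. These sums overlapped once Aspa, Olig1, Cldn11 or Mag was left out. Without Aspa they were 9.61, 27.93 and 11.4 TPM in old, against 26.63, 17.09 and 4.61 TPM in young libraries. Aspa was higher in every old library than in every young one (3.23 ± 1.17), and Ermn was lower in every one (-2.56 ± 0.90). These genes were picked after the values were seen.

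Markers of the nerve sheath, of tendon and of fibroblasts had higher sums in old than in young libraries, without overlap. Perineurial and endoneurial markers, of the sheath around nerve fibres, had 7 of 9 tested above 0 and summed to 221 to 384 TPM in old, against 97 to 156 TPM in young libraries. Of these, Slc2a1, a glucose transporter, had 164, 101 and 175 TPM in old libraries, against 29.3, 28.2 and 15.4 TPM in young ones (2.56 ± 0.39). Of the 9 tested, it was the gene whose old and young values did not overlap. Without it the sums overlapped, at 217.8, 120.3 and 209.2 TPM in old, against 120.7, 128.2 and 81.6 TPM in young libraries. Tenocyte markers had 7 of 7 tested above 0 and summed to 97.8 to 114 TPM in old, against 27.5 to 40.9 TPM in young libraries. Fibroblast markers had 8 of 10 tested above 0, with Pi16 listed at 0 throughout, and summed to 1476 to 2078 TPM in old, against 1128 to 1301 TPM in young libraries. Dcn and Serping1, a matrix proteoglycan and a complement inhibitor, made up most of that sum in old libraries, and the sums of the other genes overlapped, at 463.6, 517.2 and 674.4 TPM in old, against 577, 613.7 and 625.3 TPM in young libraries. Col3a1, a fibrillar collagen, was lower in every old library than in every young one (-0.83 ± 0.35), and Dpt, a matrix protein, differed by -0.20 ± 0.32. Genes other than the 3 of highest mean in a list were named, and sums with genes left out were added, after the values were seen. Muscle stem cell markers went the other way by count, with 9 of 10 below 0 and a median of -0.31. Cxcr4 (0 ± 0.42), Des (-0.02 ± 0.38), Vcam1 (-0.23 ± 0.31), Cd34 (-0.27 ± 0.47), Myf5 (-0.35 ± 0.42) and Itga7 (-0.44 ± 0.59) differed by less than their SE. Pax7, which defines these cells, was present in every library. Pax7 had 219, 246 and 185 TPM in old, against 308, 316 and 248 TPM in young libraries. The 10 muscle stem cell markers summed to 1479 to 2166 TPM in old, against 2211 to 2678 TPM in young libraries, without overlap. The sums overlapped once Chodl, a lectin family gene, or Pax7 was left out, and without Chodl they were 1128, 1538 and 1469 TPM in old, against 1453, 1584 and 1536 TPM in young libraries. Chodl differed by -0.90 ± 0.32. Sdc4, a cell surface proteoglycan, was the marker that was higher in every old library than in every young one (0.42 ± 0.28). The members without Pmp22 and Drp2 stayed below the sum of all 10 in each library, with 744.4, 1749 and 702.03 TPM in old, against 163.8, 264.7 and 226 TPM in young libraries. With Pmp22 and Drp2, the 33 members summed to 2272, 6987 and 2115 TPM in old libraries, above the 10 markers in each. In young libraries that sum was 1079, 2145 and 1597 TPM, below the 10 markers. Sums of different genes do not give shares of cells.

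Blood, vessel and fibre markers overlapped between old and young in their sums. Endothelial markers had 5 of 7 tested above 0, with Cldn5, Egfl7 and Tie1 listed at 0 throughout, and summed to 44.1 to 72.5 TPM in old, against 33.01 to 48.4 TPM in young libraries. The endothelial sums no longer overlapped once Esam was left out. They were then 41.76, 48.64 and 70.83 TPM in old, against 40.73, 33.01 and 24.77 TPM in young libraries. Macrophage markers had 3 of 6 tested above 0, with C1qa listed at 0 throughout, and summed to 28.4 to 60.4 TPM in old, against 29.1 to 49.4 TPM in young libraries. The full endothelial and macrophage sums lay below the member sum without Pmp22 and Drp2 in each of these libraries. Smooth muscle and pericyte markers (6 of 10 above 0) summed to 453 to 928 TPM in old, against 500.6 to 678 TPM in young libraries. Genes of this list, picked after the values were seen, went opposite ways. Acta2 (1.46 ± 0.43), Myh11 (1.56 ± 0.58) and Cspg4 (0.81 ± 0.55) were higher in every old library than in every young one. Kcnj8 was lower in every one (-1.35 ± 0.56), and Rgs5 overlapped (-1.26 ± 0.72). Without Rgs5 the sums were 257.3, 767.1 and 586 TPM in old, against 272.9, 246.9 and 278 TPM in young libraries, still with overlap. Acta2 had 142.5, 510 and 348.7 TPM in old libraries 1, 2 and 3. Mature fibre markers (4 of 5 tested above 0) summed to 23.03 to 56.4 TPM in old, against 9.82 to 41.02 TPM in young libraries. Red blood cell markers, with 2 of 5 tested above 0, had sums of 20.1 to 54.5 TPM in old, against 46 to 86.6 TPM in young libraries. Genes that every cell uses split 11 above and 13 below 0, with a median of -0.10. The part of any of these cells in the member values was not tested.

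In single-cell wells most members were found rarely or not at all. A gene was called found in a well at 1 TPM or more. Old wells held between 3 and 2950 genes, with a median of 64, and young wells between 7 and 3621, with a median of 1854. At least 1000 genes were found in 7 of 31 old and 54 of 64 young wells, so the wells of the 2 ages differ in content before any gene is looked at. With 1 mouse per age no test was made. Of the 33 members, 3 were found in at least 1 old well and 14 in at least 1 young well, while 19 were found in none. Over the genes tested in bulk, 27.6% were found in at least 1 old well and 52.7% in at least 1 young well. A gene found in 0 wells allows a share of up to 9.68% of old and 4.69% of young wells, counting error only. These limits are 3 wells of each total. The two-sided exact 95% interval of 0 wells reaches 11.2% in old and 5.6% in young wells. Both treat every well as able to show the gene, although only 7 of 31 old wells held at least 1000 genes. Over those 7 old wells alone, the exact interval of 0 wells reaches far above 11.2%. Absence of a gene from old wells is therefore weakly bounded.

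The 3 members found in old wells were also widespread in young wells. Pmp22 was found in 5 of 31 old wells (16.1%, exact Clopper-Pearson 95% interval 5.45 to 33.7) and in 29 of 64 young wells (45.3%, 32.8 to 58.3). Drp2 was found in 4 of 31 old and 26 of 64 young wells. Scn7a was found in 4 of 31 old and 18 of 64 young wells. Over the genes tested in bulk, 5.39% were found in at least 4 old wells and 30.4% in at least 4 young wells. Among wells with at least 1000 genes, Pmp22 was found in 4 of 7 old and 29 of 54 young ones, Drp2 in 3 of 7 and 25 of 54, and Scn7a in 3 of 7 and 18 of 54.

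The other 11 members found at all occurred in 1 to 3 young wells each and in 0 old wells. They were Cnp, Ngfr and Egfl8 with 3 wells each, Gjc3 with 2, and Sox10, Nfasc, Erbb3, Prx, Cadm4, Ncmap and Mag with 1 each. They were spread over 15 young wells, at most 2 to a well, and 3 wells held 2 of them. Young well 27 held Sox10 (65.4 TPM) and Erbb3 (86.2 TPM) together with Pmp22 (206 TPM) and Myf5 (543 TPM), and Pax7 was listed at 0. Young well 53 held Mag (183 TPM) and Prx (23.1 TPM) together with Pax7 (67.8 TPM) and Myf5 (998 TPM). Young well 9 held Ncmap (410.4 TPM) and Gjc3 (8.71 TPM) among only 63 genes found. No well held 3 or more of the 11, and Mbp, Mal, Kcna1, Cdh19 and Gldn were found in 0 of 31 old and 0 of 64 young wells. Of members with a young bulk mean of 5 to 20 TPM, 5 of 12 were found in a young well, and of all genes at that bulk level 63.7% were. At 1 to 5 TPM these were 2 of 9 members and 33.9% of genes, and at 20 to 100 TPM 3 of 3 members and 93.4% of genes.

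**Figure D5:**
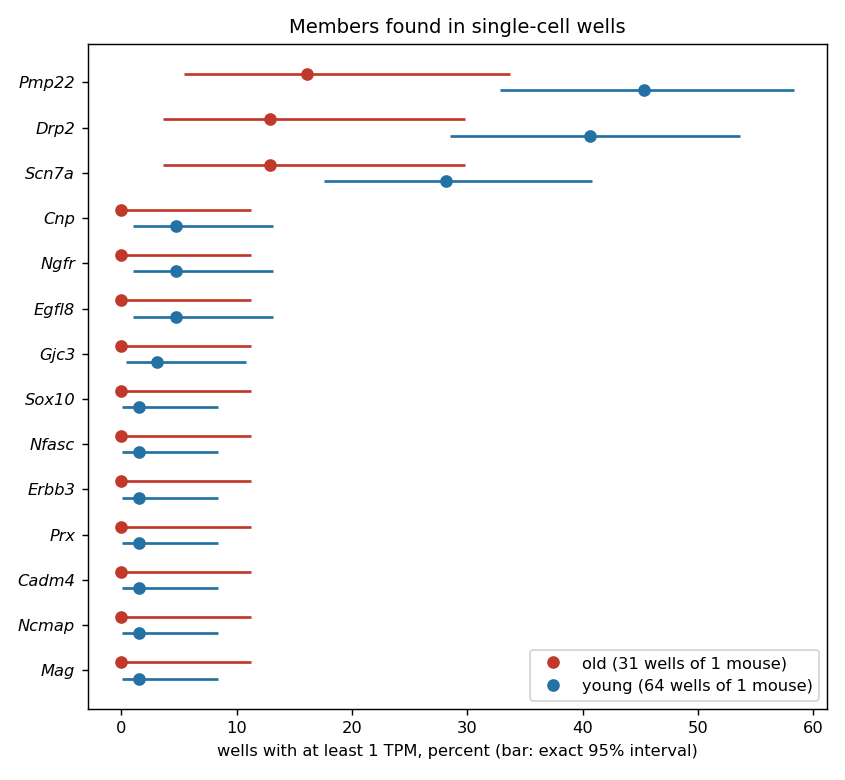
Share of old (red) and young (blue) wells in which each of 14 members was found at 1 TPM or more, with exact 95% intervals for counting error, wells being from 1 mouse per age. Pmp22, Drp2 and Scn7a lie at 28.1 to 45.3% of young wells, and the other 11 at 4.69% or less.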

How the data were processed

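RNA libraries of muscle stem cells were compared by age in bulk (3 old, 2 middle-aged, 3 young) and described in single-cell wells. Per the labels, the deposited values are TPM, made by the authors after alignment with STAR to mm10. The annotation, strandedness and the tool behind the TPM: not given in the sources used here. TPM keep no read counts, so precision rests on the spread between libraries, each from another mouse per the design text. Bulk columns summed to 999999.2 to 1000000.9.

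The members and all lists were chosen with earlier results of these data known. A fit with limma 3.58.1 in R 4.3.3 used log2(TPM + 1) for 22492 genes averaging 1 TPM or more, all 8 libraries, 1 mean per age, a variance trend, two-sided tests and Benjamini-Hochberg adjustment over all genes. Fold changes on this scale understate the change of low genes. The fit was tested on simulated data. Per-library values are given for members averaging at least 5 TPM at some age, and from other lists up to 3 tested genes with the highest mean are named. Some genes that this rule named are not reported here. In wells, found means at least 1 TPM, and a count of 0 allows up to 3 wells. The alternatives were pseudocounts of 0.1 and 5, other filters, 2 rescalings, a replicate block, fits of 2 groups and leaving out each library. Other software: scipy 1.17.1, matplotlib 3.10.9, pandas 2.3.3 and numpy 2.4.6 under Python 3.11.15.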

Additional observations from a re-analysis of the deposited data

How the results depend on the processing

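Under all alternatives run, 0 members passed at an adjusted p under 0.05 in limma in any of the 3 bulk comparisons. The median old minus young difference of 2.07 was 2.82 with a pseudocount of 0.1 and 1.38 with one of 5. The count at an unadjusted p under 0.05 for old against middle-aged was 7 instead of 4 after upper-quartile rescaling, which moved the all-gene median of old minus middle-aged from -0.09 to 0 and that of middle-aged minus young from 0.18 to 0. The cause was not tested. With 1 library left out in turn, the old against young count at an unadjusted p was 13 to 18, the median 1.62 to 2.20, the members above 0 28 to 31, and those without overlap 17 to 21. For middle-aged against young these were 2 to 7, 0.41 to 1.72, 19 to 26 and 10 to 24. For old against middle-aged they were 3 to 7, 0.64 to 1.53, 24 to 30 and 11 to 21. Leaving out a middle-aged library leaves a lone sample, assumed to vary like the other groups. With a library of the groups compared left out, the share of all genes higher without overlap moved too. It was 8.54 to 12.0% for old against young, 16.3 to 36.4% for middle-aged against young and 9.88 to 20.9% for old against middle-aged. The counts above 0 and without overlap were left-out alternatives chosen after seeing the data, as were the wells with at least 1000 genes. Replicate numbers did not pair the libraries, as same-numbered libraries correlated at -0.012 to 0.005 after removal of group means. With the replicate as a block, the unadjusted counts were 20 for old against young, 4 for middle-aged against young and 5 for old against middle-aged, the adjusted counts 0, and the medians 2.07, 0.93 and 1.29. For the unadjusted counts and the counts above 0, no share over all genes was computed under the alternatives. Nothing is therefore read from their changes. Egfl8 and Drp2 were the members whose old against young difference changed sign when 1 library was left out. Members found in a young well numbered 17 at any value above 0, 10 at 10 TPM or more and 13 in wells with at least 1000 genes, and in an old well 4, 3 and 3.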

Other observations

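Egr2, the partner of Sox10 in myelination, was read beside the members in the wells. It was found in 4 of 31 old wells and in 28 of 64 young wells, whereas Sox10 was found in 0 of 31 old wells and in 1 of 64 young wells. In bulk, Egr2 averaged 99.0 ± 20.3 TPM in young (SD, n = 3), 253 ± 65.5 TPM in middle-aged (n = 2) and 175 ± 51.9 TPM in old libraries (n = 3). Sox10 averaged 6.54 ± 4.85 TPM in young bulk libraries, so the 2 genes are not compared at like levels. Of all genes with a young bulk mean of 5 to 20 TPM, 63.7% were found in a young well, against 93.4% at 20 to 100 TPM.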
